A study of Mus musculus with 4 samples.

Results

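The tumour necrosis factor (TNF) superfamily of ligands, its receptors and the TRAF adaptors were followed in whole mouse lung, as 43 of the 18193 genes measured. Members were chosen by gene symbol alone, from probe sets annotated to 1 symbol: every gene named Tnfsf, Tnfrsf or Traf with a number, together with Tnf, Lta, Ltb, Ltbr, Fas, Fasl, Cd27, Cd40, Cd40lg and Cd70. They comprised 13 ligands, 23 receptors, 6 TRAF adaptors and Tnfsf13os, a transcript named as lying opposite to Tnfsf13. The lungs came from B6/J mice of 2 groups, wild type and IKKa floxed, with 2 arrays in each. Both groups had been given an adenovirus with Cre recombinase into the trachea, and lungs were taken 4 months afterwards, so exposure to virus and Cre was common to all samples. IKKa (IKKα) is a kinase that acts on NF-κB downstream of several of these receptors. The comparison therefore sets lungs with the floxed allele against lungs without it after the same treatment. The labels used here give neither the number of floxed alleles nor the promoter driving Cre, nor whether the arrays of a group came from separate animals. The p-values thus reflect only how far these particular arrays varied, and that variation may be technical. Whole-lung RNA also includes cells that the virus did not reach, and in bulk RNA more cells of a type and more RNA per cell cannot be told apart.

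TNF superfamily ligands are mostly trimeric membrane proteins, some of them shed, that gather their receptors into clusters. One set of receptors carries a death domain in its tail and can start apoptosis or necroptosis. Most others bind TRAF adaptors, which recruit kinases that activate NF-κB. The lymphotoxin β receptor, CD40, the BAFF receptor and RANK also use the non-canonical branch, in which the kinase NIK (Map3k14) and IKKα lead to processing of the NF-κB2 precursor. In the lung, members of the family organise lymphoid aggregates, sustain B cells and plasma cells, co-stimulate T cells and set the survival of epithelium.

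The arrays fell apart by more than the floxed allele. Surfactant protein B (Sftpb), a defining gene of lung alveoli, gave intensities of 2271 and 2301 on the wild type arrays and 2305 and 2321 on the floxed arrays. Other alveolar genes differed more. Over the 8 tested, log2 fold changes of floxed minus wild type ran from -0.69 (Pdpn) to 0.44 (Sftpc), and none passed an adjusted p of 0.05. Xist, expressed from the inactive X of female cells, gave 31.8 and 22.9 on the wild type arrays and 4246 and 4629 on the floxed arrays. Y-linked Eif2s3y gave 519 and 530.5 against 3.77 and 6.14. The groups thus differed in sex pattern as in genotype, and the share of each in any difference cannot be told apart. The 3′ to 5′ ratio of the Gapdh control probes, which increases as RNA degrades, was 1.10 to 1.18 on the wild type arrays and 1.44 to 1.68 on the floxed arrays. For the actin control probes the groups were closer, at 2.65 and 2.46 against 2.67 and 2.77. Deletion could not be checked here, as the targeted gene is not analysed.

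None of the 29 members tested passed the threshold in either direction (limma, Benjamini-Hochberg adjusted p under 0.05 over 12735 genes), while 1.77% of all genes tested did (1.01% higher and 0.762% lower in the floxed lungs). At an unadjusted p under 0.05 there were 7 members, 6 of them higher and 1 lower in the floxed lungs, or 24.1% of the members tested against 14.3% of all genes (7.12% higher and 7.14% lower). Both floxed arrays lay above both wild type arrays for 16 of the 29, or 55.2%, against 23.6% of all genes. The opposite order was seen for 1 member, or 3.45%, against 22.2% of all genes. Tnfrsf17 and Tnfrsf11a, both among the 16 and among the 6, passed the filter on low intensity only through their level in the floxed arrays, and Tnfsf8 only through wild type. Without these 3, 14 of 26 lay above (23.4% of all genes chosen the same way) and 1 below (21.6%). At an unadjusted p under 0.05, 4 of the 26 were higher, beside 7.12% of all 12735 genes tested. The share of genes chosen the same way was not counted for this p. With no filter 19 of all 43 members lay above (21.9% of 18193 genes) and 2 below (20.7%). These further counts were chosen after seeing the data. The median log2 fold change of the 29 was 0.19, beside 4.73e-05 over all genes, and 0.11 beside -0.02 when the probe sets of each gene were averaged. The members were chosen with earlier results of these arrays known, so these shares describe them and are no test. Of the 29, 16 also had both floxed arrays above wild type after quantile normalization (against 25.1% of all genes) and 16 with each array centred on its median (against 31.9%). The plot of the members among all genes shows them close to the centre line.

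**Figure D1:**
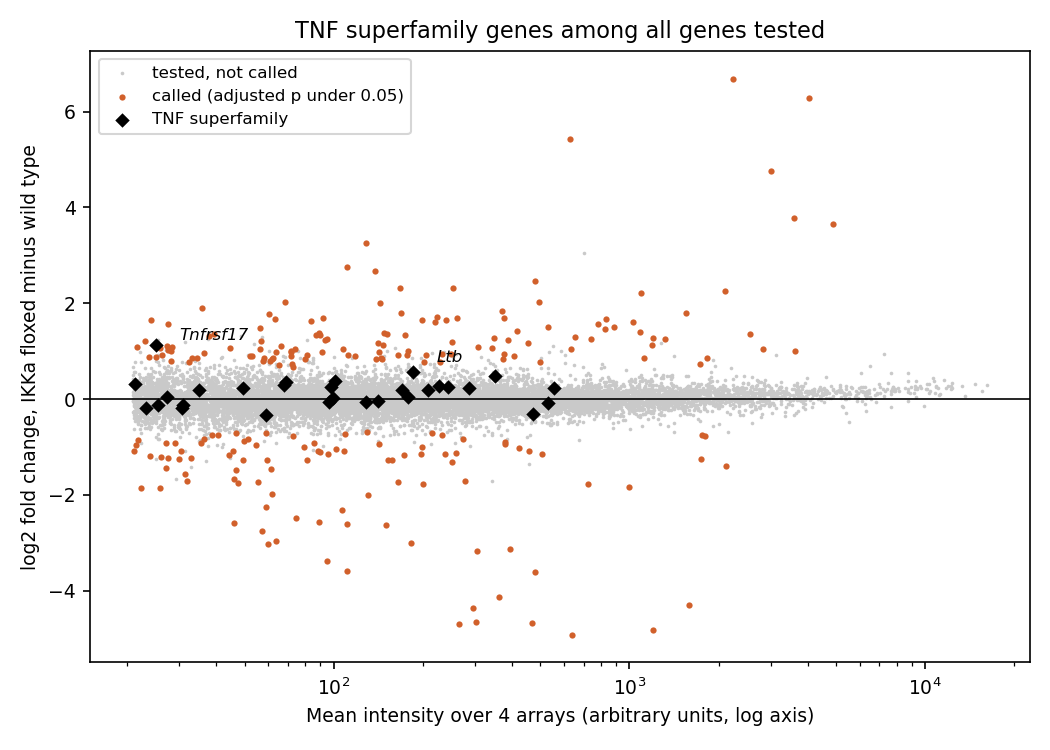
Each point is 1 of the 12735 genes tested, with mean intensity over the 4 arrays on a log axis and the log2 fold change of floxed minus wild type on the vertical axis. Orange points passed the adjusted threshold and black diamonds are the 29 TNF superfamily genes, none of which passed; Tnfrsf17 (1.14) and Ltb (0.57) lie highest among them.

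The size of change that could have been called sets the weight of that count. At the members' median standard error (SE) of 0.135 on the log2 scale, a difference of 0.77, or 1.71-fold, would have been needed to pass. Only Tnfrsf17 differed by as much. Of the 29 members, 28 had an unadjusted 95% interval that lay wholly within a 2-fold change either way, Tnfrsf17 being the exception. As 16 was added to each intensity before the log, fold changes of low members are understated, and their intervals do not bound the true fold change. The 95% interval included 0 for 22 members. Smaller changes were therefore not resolved by 2 arrays per group, and a missed threshold does not show equal levels.

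**Figure D2:**
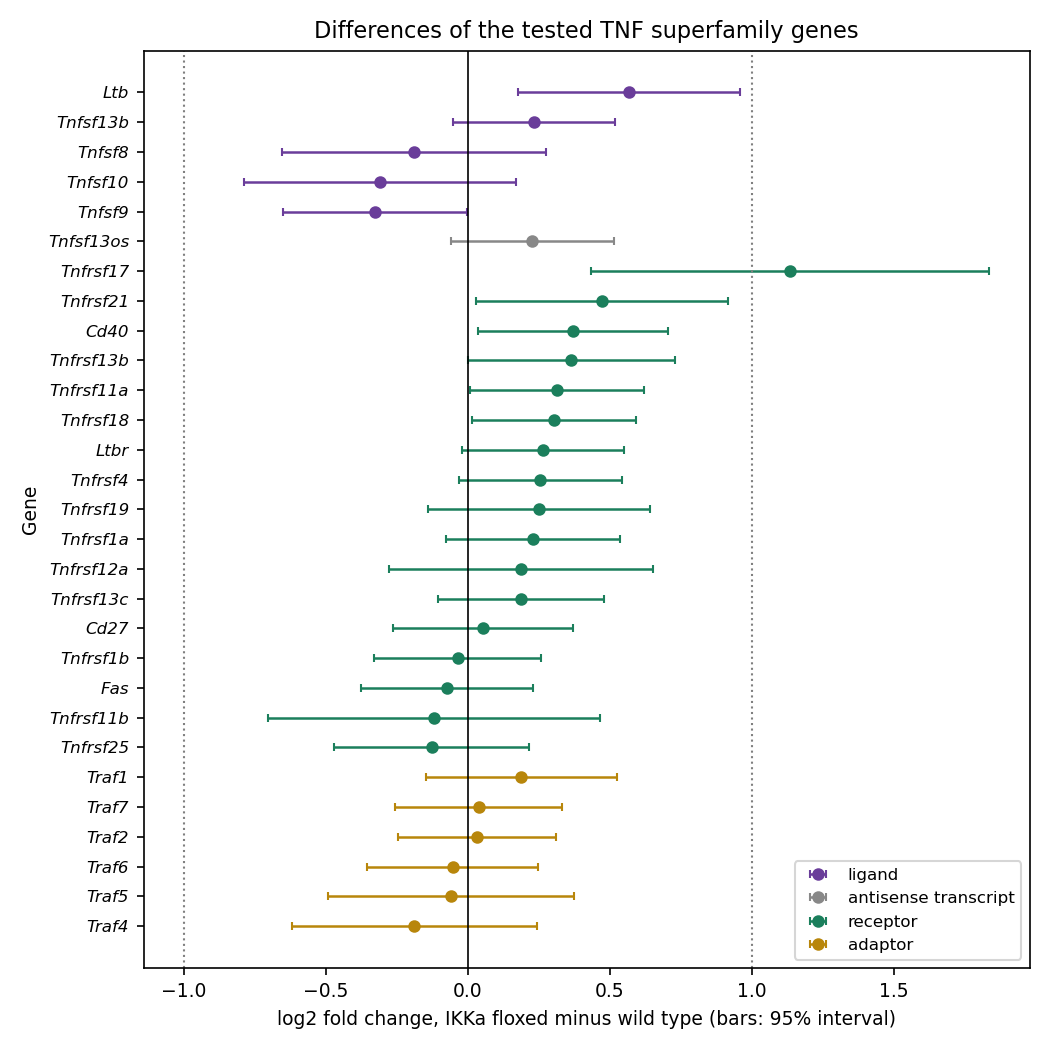
Points give the log2 fold change of floxed minus wild type for the 29 members tested, and bars the 95% interval from limma's moderated SE, unadjusted for the number of genes; dotted lines mark a 2-fold change. The interval of Tnfrsf17 runs from 0.43 to 1.84 and is the only one to cross a dotted line, while the TRAF adaptors lie between -0.19 and 0.19.

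A further 14 members had a mean intensity under 21.0, the 30th percentile of all genes, and were left out of the test. They were the ligands Tnf, Lta, Tnfsf14, Fasl, Cd40lg, Tnfsf4, Tnfsf11 and Cd70 and the receptors Tnfrsf8, Tnfrsf9, Tnfrsf10b, Tnfrsf14, Tnfrsf22 and Tnfrsf23. The founding ligand, Tnf, gave intensities of 17.2 and 10.9 on the wild type arrays and 9.83 and 28.5 on the floxed arrays. The groups overlapped for Tnf, with the floxed arrays at both ends of its range. For 10 members every array was under 21.0. Values this low have no stated detection limit, so intensities are given for members left out of the test and no fold change.

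**Figure D3:**
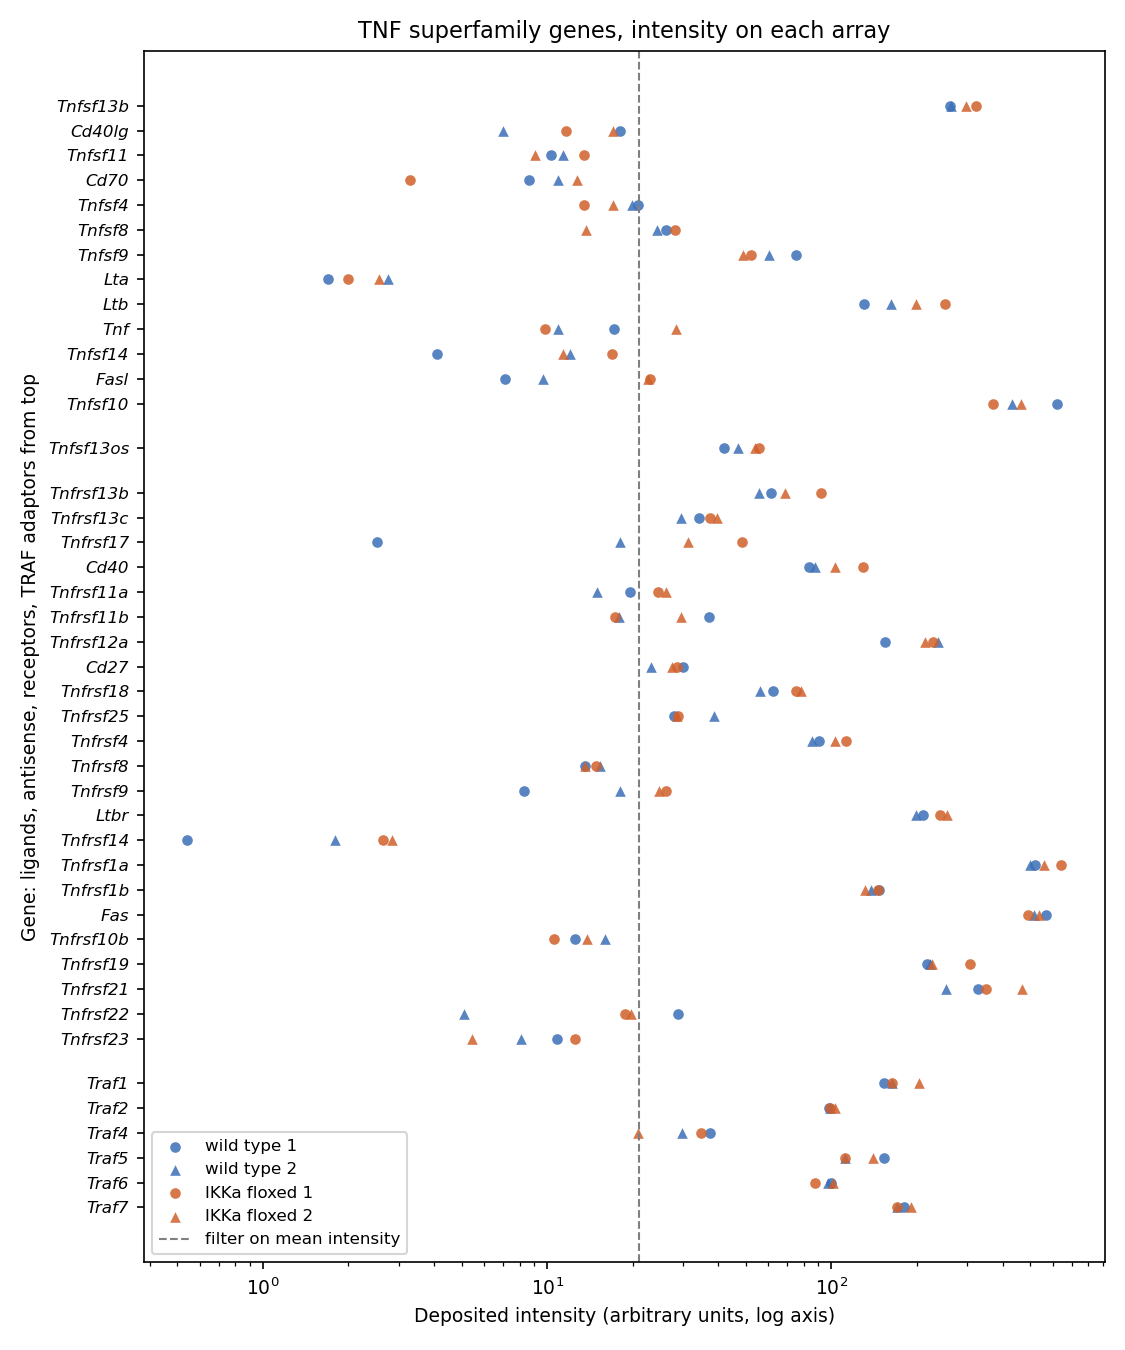
Deposited intensity (log axis) of each of the 43 members on the 4 arrays, with blue symbols for wild type and orange for floxed lungs, circles for replicate 1 and triangles for replicate 2. The dashed line at 21.0 marks the mean intensity under which a gene was not tested; levels of different genes come from different probes and are not comparable.

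Ltb and its receptor stood at the head of the TNF and lymphotoxin group. Ltb encodes lymphotoxin β, a membrane ligand of lymphocytes that forms a trimer with lymphotoxin α and drives the growth of lymphoid tissue. Its intensity was 131 and 162 on the wild type arrays and 251 and 198 on the floxed arrays. Both floxed arrays lay above both wild type arrays, with floxed replicate 1 the higher. The log2 fold change was 0.57 ± 0.16 (SE, n = 2 per group), a 1.48-fold difference with a 95% interval of 0.18 to 0.96, and it missed the threshold (limma adjusted p = 0.182). Leaving out 1 array at a time gave log2 fold changes of 0.41 to 0.73 and adjusted p-values of 0.107 to 0.572. Ltbr, the receptor for lymphotoxin and LIGHT that signals to NIK and IKKα, gave 210.1 and 198 on the wild type arrays and 241 and 256 on the floxed arrays. These groups did not overlap either, and Ltbr was likewise not called.

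The 250 bases before the start of Ltb are printed because this ligand had the largest difference among the ligands tested and its promoter is a classic target of NF-κB. The window was chr17:35194257-35194506 on the + strand of GRCm38.p6 (RefSeq), 5′ to 3′. Capitals mark, in order, a match to the interferon-γ activated site (GAS, TTCNNNGAA) and a match to the κB motif on the opposite strand.
Ltb: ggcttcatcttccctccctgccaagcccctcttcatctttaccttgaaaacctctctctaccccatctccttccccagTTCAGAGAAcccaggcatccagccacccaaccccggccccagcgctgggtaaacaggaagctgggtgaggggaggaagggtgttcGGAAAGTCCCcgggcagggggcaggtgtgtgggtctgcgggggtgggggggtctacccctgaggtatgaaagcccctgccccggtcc
Over all 32851 promoter windows of 300 bases in the table, 8.46% held a κB match and 8.3% a GAS match on either strand. Windows were found for 34 of the 43 members, 38 windows in all. Of those 34, a κB match lay in 4 (Ltb, Tnfrsf25, Tnfrsf8 and Tnfrsf9) and a GAS match in 9. A match is a string of letters and does not show that a factor binds there.

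The other members of this group were the TNF receptors and 2 ligands at low level. Tnfrsf1a, the widely expressed death domain receptor for TNF, gave 522 and 498 on the wild type arrays and 642 and 561 on the floxed arrays, without overlap. Tnfrsf1b, the TNF receptor found mainly on immune and endothelial cells, gave 147 and 138 against 146 and 131, with the groups overlapping. Lta, whose product lymphotoxin α joins lymphotoxin β, was between 1.70 and 2.76 on all arrays. Tnfsf14, which encodes LIGHT, lay at 4.11 and 12.0 against 16.9 and 11.3. Its second receptor gene, Tnfrsf14, stayed under 3 on each array. Of 4 members tested here, 3 had both floxed arrays above wild type (23.6% of all genes did) and none passed.

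Among the genes for survival of B cells and plasma cells, 4 of 4 had both floxed arrays above wild type (23.6% of all genes did), and none passed. One of them, Tnfrsf17, passed the filter only through the floxed arrays. Tnfrsf17 encodes BCMA, the receptor on plasma cells for the survival factors APRIL and BAFF. Its intensity was 2.53 and 18.0 on the wild type arrays and 48.4 and 31.2 on the floxed arrays. The groups did not overlap, but the wild type arrays differed from each other by more than the floxed arrays did as a ratio. The log2 fold change was 1.14 ± 0.29 (SE, n = 2 per group), which missed the threshold (limma adjusted p = 0.144). It ranked 74th from the top among the 12735 genes tested. Without wild type replicate 2, the array at 18.0, the log2 fold change was 1.57 and Tnfrsf17 passed (adjusted p = 0.00952), the 1 call made for any tested member under any setting. Without wild type replicate 1 it was 0.70 (adjusted p = 0.272).

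The sequence before Tnfrsf17 is shown because it was the member with the largest difference. It covers 250 bases at chr16:11313559-11313808, + strand of GRCm38.p6 (RefSeq), and capitals mark a match to the interferon-stimulated response element (ISRE, searched as GAAA, any 2 bases and GAAA) on the opposite strand.
Tnfrsf17: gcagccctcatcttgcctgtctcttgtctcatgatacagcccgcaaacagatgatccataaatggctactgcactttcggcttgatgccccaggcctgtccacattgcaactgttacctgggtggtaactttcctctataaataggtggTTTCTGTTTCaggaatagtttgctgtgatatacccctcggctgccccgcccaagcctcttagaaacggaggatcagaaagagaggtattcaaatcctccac
An ISRE match was present in 3.44% of all windows and in those of 4 of the 34 members (Tnfrsf14, Tnfrsf17, Tnfrsf1b and Tnfsf13b). No κB or GAS match was found in the window of Tnfrsf17.

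BAFF and its other receptors differed less. Tnfsf13b, which encodes BAFF, gave 261 and 263 on the wild type arrays and 323 and 298 on the floxed arrays. The floxed arrays were the higher, with a log2 fold change of 0.23 ± 0.12 (SE, n = 2 per group; adjusted p = 0.452). Tnfrsf13b encodes TACI, a receptor of B cells and plasma cells that supports antibody class switching, and gave 61.1 and 55.4 against 91.7 and 68.6. The groups were apart, by 0.36 ± 0.15 on the log2 scale (adjusted p = 0.352). Tnfrsf13c, the BAFF receptor of mature B cells, gave 34.1 and 29.6 against 37.3 and 39.5. Tnfsf13, the gene for APRIL, is not analysed here, and Tnfsf13os gave 41.9 and 46.8 against 55.4 and 53.7.

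Some plasma cell genes moved on the same arrays. In the plasma cell list, 3 of 9 genes tested passed, all higher in floxed lungs. They were Igha, the IgA heavy chain, Jchain, which joins antibodies into polymers, and Mzb1, an antibody chaperone, with log2 fold changes of 3.66, 3.79 and 1.61. The list's summed intensity was 8124 to 8610 on the wild type arrays and 22618 to 24243 on the floxed arrays. Its defining genes were on the arrays, with Igha at 594 and above everywhere. The B cell list had no call among 7 genes tested, with 2 at an unadjusted p under 0.05 (14.3% of all genes were). Its median log2 fold change was -0.12 and its sums 642 to 675 against 492 to 676. Ms4a1, the gene for CD20, gave 219 and 249 against 201 and 140.5. The part of plasma cell number in the level of Tnfrsf17 or Tnfrsf13b was not tested.

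Cd40 and its ligand link B cells, dendritic cells and macrophages to helper T cells. Cd40 gave 83.6 and 87.5 on the wild type arrays and 129 and 103 on the floxed arrays. The floxed arrays were above wild type by 0.37 ± 0.14 on the log2 scale (SE, n = 2 per group; adjusted p = 0.301). The interval was 0.04 to 0.70. Its 3 probe sets gave 0.37, 0.25 and 0.22, all in one direction. Cd40lg, an X-linked gene of activated helper T cells, was under 21.0 on each array at 18.0 and 6.97 against 11.7 and 17.0, and the groups overlapped.

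The T cell co-stimulatory pairs were split. Of 6 members tested, 3 lay above and 3 below 0, and none passed. Tnfrsf18, which encodes GITR, a receptor high on regulatory T cells, gave 62.2 and 56.0 on the wild type arrays and 75.2 and 77.9 on the floxed arrays. The floxed pair was higher by 0.30 ± 0.12 on the log2 scale (SE, n = 2 per group; adjusted p = 0.326). Tnfrsf4, the gene for the activation receptor OX40, gave 90.2 and 85.3 against 113 and 103, again without overlap, while its ligand gene Tnfsf4 gave 20.9 and 19.8 against 13.5 and 17.1. In the 4-1BB pair, the ligand gene Tnfsf9 gave 74.9 and 60.5 against 52.2 and 48.9. It was the 1 tested member with both floxed arrays below wild type, at -0.33 ± 0.14 (SE, n = 2 per group; adjusted p = 0.345). Its receptor gene Tnfrsf9, under the filter, had the opposite order, at 8.29 and 18.1 against 26.1 and 24.8.

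Other pairs of this group overlapped or were dim. Cd27, a receptor of T cells and memory B cells, gave 30.1 and 23.2 on the wild type arrays and 28.6 and 27.6 on the floxed arrays, and its ligand gene Cd70 lay between 3.30 and 12.7. Tnfrsf25, the gene for death receptor 3, gave 27.9 and 38.5 against 28.8 and 28.7. Tnfsf8, the gene for the ligand of CD30, had 26.2 and 24.4 against 28.1 and 13.7, a log2 fold change of -0.19 ± 0.19 (SE, n = 2 per group; adjusted p = 0.722). Its receptor gene Tnfrsf8 lay between 13.6 and 15.3 on all arrays.

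T cell genes differed more than these receptors did, though the difference between the lists was not tested. Of 9 T cell genes tested, 4 passed, all higher in the floxed lungs (median log2 fold change 0.89). Among them Cd5, Icos and Cd8b1 had log2 fold changes of 0.96, 0.85 and 1.49. The T cell sum was 456 to 464 on the wild type arrays and 836 to 1096 on the floxed arrays, while the defining gene Cd4 stayed between 3.16 and 5.08 and Cd3e between 5.85 and 32.2. In the NK and cytotoxic list 2 of 10 genes tested passed, all higher (1.01% of all genes passed higher), and 8 of 10 lay above 0. The sums of that list were 732 to 807 against 1056 to 1474. In both lists floxed replicate 1 gave the higher sum. Among the 16 tested members with both floxed arrays above wild type, floxed replicate 1 was the higher of the pair for 9 and replicate 2 for 7. This order was not counted over all genes, so nothing is read from it. The part of lymphocyte number in these values was not tested.

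**Figure D4:**
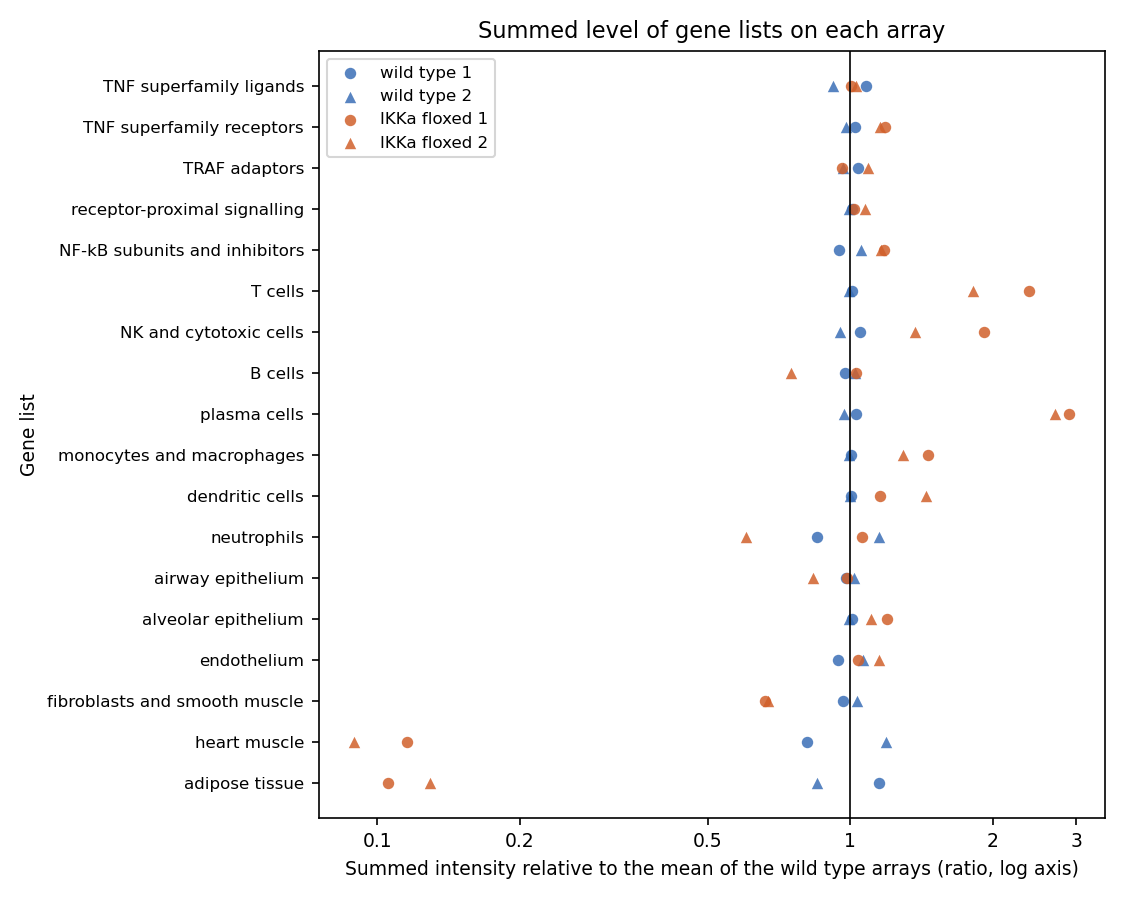
Summed intensity of each gene list on each array, as a ratio to the mean of the wild type arrays on a log axis, with blue symbols for wild type and orange for floxed lungs. The receptor sum stood at 1.18 and 1.15 on the floxed arrays and the ligand sum at 1.00 and 1.03, beside 2.38 and 1.82 for T cells, 2.90 and 2.70 for plasma cells and 0.116 and 0.0894 for heart muscle. Most of the rise in the plasma cell sum lay in Igha and Jchain. The largest part of the ligand sum was Tnfsf10, at 623 and 430 on the wild type arrays and 371 and 463 on the floxed arrays.

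The death receptor pairs had no member called and none without overlap among those tested. Fas encodes a death receptor expressed by lung epithelium and lymphocytes, and gave 570.1 and 515 on the wild type arrays and 490.5 and 538 on the floxed arrays. The arrays of both groups were interleaved. Tnfsf10, the gene for TRAIL, gave 623 and 430.2 against 371 and 463, with wild type replicate 1 apart from the rest. Its log2 fold change was -0.31 ± 0.20 (SE, n = 2 per group; adjusted p = 0.554), and its other probe sets gave 0.03 and 0.05. The TRAIL receptor gene Tnfrsf10b lay between 10.5 and 15.9.

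Fasl stood out among the members left out of the test. It encodes the ligand of Fas, carried by cytotoxic lymphocytes, and gave 7.10 and 9.69 on the wild type arrays and 22.9 and 22.6 on the floxed arrays. The floxed arrays were close to each other and above both wild type arrays. With no filter on low genes it was not called (limma adjusted p = 0.160 over 18193 genes), and every array was under 9 for its second probe set. It is singled out here after its values were seen.

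Among the RANK and TWEAK pairs, Tnfrsf11a encodes RANK, a receptor of osteoclast precursors and dendritic cells. It gave 19.5 and 15.0 on the wild type arrays and 24.5 and 26.1 on the floxed arrays. The floxed arrays were higher by 0.31 ± 0.13 on the log2 scale (SE, n = 2 per group; adjusted p = 0.336), close to the filter, and a second probe set, under the filter, gave -0.09. The RANK ligand gene Tnfsf11 lay between 9.06 and 13.5, and Tnfrsf11b, the gene for the decoy receptor osteoprotegerin, overlapped at 37.0 and 17.9 against 17.3 and 29.6. Tnfrsf12a, the injury-induced TWEAK receptor Fn14, gave 155 and 237 against 227 and 214, with wild type arrays on both sides of the floxed pair.

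Of the remaining receptors, Tnfrsf21 encodes death receptor 6, expressed in epithelium and lymphocytes. It gave 327 and 253 on the wild type arrays and 351 and 468 on the floxed arrays. The floxed arrays were above wild type by 0.47 ± 0.19 on the log2 scale (SE, n = 2 per group; adjusted p = 0.319), with floxed replicate 2 the higher. Its second probe set gave -0.02, so the probe sets of Tnfrsf21 disagreed. Tnfrsf19, an epithelial receptor also called TROY, gave 217 and 221 against 308 and 226. The mouse decoy receptor genes Tnfrsf22 and Tnfrsf23 were below the filter, at 5.11 to 28.9 and 5.46 to 12.5, and are close relatives of each other, so their probes may not separate them.

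The TRAF adaptors lay close to 0. All 6 had log2 fold changes between -0.19 and 0.19, with 3 above and 3 below 0 and adjusted p-values of 0.612 to 0.935. Traf1, itself a target of NF-κB, gave 153 and 163 on the wild type arrays and 163 and 203 on the floxed arrays. Its log2 fold change was 0.19 ± 0.14 (SE, n = 2 per group), with a second probe set at -0.02. Traf2, which brings the inhibitors of apoptosis cIAP1 and cIAP2 to the receptors, gave 97.7 and 99.1 against 99.1 and 103. Its interval ran from -0.24 to 0.31. Traf6, the adaptor shared with Toll-like and interleukin 1 receptors, gave 99.7 and 97.1 against 87.3 and 101. Traf5 overlapped at 154 and 111 against 111 and 140.1, as did Traf4 at 37.3 and 29.7 against 34.8 and 21.0 and Traf7 at 179.8 and 170.5 against 170.4 and 190.3. Traf3, which holds NIK in check, is not analysed here.

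Probe sets of a gene did not always point one way. Of the 43 members, 20 had several probe sets, and for 9 of these they lay on both sides of 0, probe sets under the filter included. Among 9 members with several probe sets above the filter intensity, this was true of 4, namely Tnfrsf21, Tnfsf10, Traf1 and Traf6. Cd40, Tnfsf13b, Tnfrsf12a, Tnfrsf19 and Traf5 were the others, each with one direction. When the probe sets of each gene were averaged, no member passed.

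**Figure D5:**
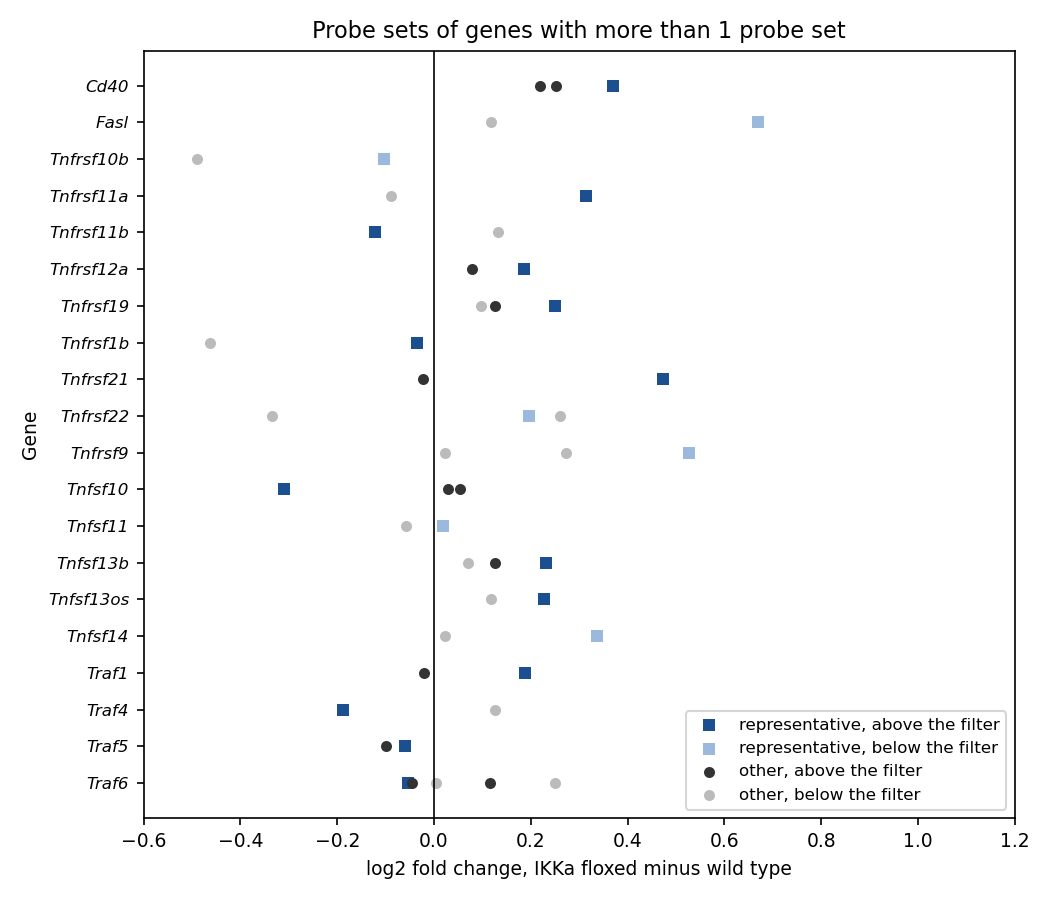
Log2 fold change of floxed minus wild type for each probe set of the 20 members with more than 1. Squares mark the probe set with the highest mean, which represented the gene, circles the others, and pale symbols those with a mean intensity under 21.0, whose differences rest on values with no stated detection limit; the representative of Tnfrsf21 lies at 0.47 and its second probe set at -0.02.

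The genes that act just below these receptors also gave no call. Of 33 receptor-proximal signalling genes tested, none passed over all genes, and their median log2 fold change was 0.02. An unadjusted p under 0.05 was seen for 8 of the 33, beside 14.3% of all genes. Mlkl, the membrane-permeabilising effector of necroptosis, gave 62.1 and 51.3 on the wild type arrays and 95.8 and 121 on the floxed arrays, the groups being apart by 0.77 ± 0.15 (SE, n = 2 per group; adjusted p = 0.0691). It passed with a pseudocount of 64 (adjusted p = 0.0389), under a robust prior with an intensity trend (0.0402) and narrowly in the fit on averaged probe sets. Tnfaip3, the gene for the ubiquitin-editing inhibitor A20, gave 252 and 226 against 354 and 333 (log2 fold change 0.50, adjusted p = 0.133). Tab1, an activator of the kinase TAK1, gave 47.5 and 54.6 against 28.4 and 33.4 (-0.52, adjusted p = 0.135), and Tifa, which oligomerises TRAF6, 87.3 and 85.2 against 129 and 119 (0.45, adjusted p = 0.152). The IKK subunit genes Ikbkb and X-linked Ikbkg stood at -0.11 and -0.23, and Map3k14, the gene for NIK, at 52.1 and 50.7 against 48.8 and 38.7 (-0.18). Some of these values depended on the probe set. In the fit on averaged probe sets Tnfaip3 stood at 0.24, Tab1 at -0.31, Ikbkb at -0.08 and Ikbkg at -0.09. Map3k14 changed sign there, to 0.05. Tifa and Mlkl had the same values there as in the main fit (0.45 and 0.77). For these genes averaging gave no second reading of the difference.

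None of 9 NF-κB subunits and inhibitors passed either, and they had a median log2 fold change of 0.21. An unadjusted p under 0.05 was seen for 1 of the 9, beside 14.3% of all genes. Nfkbie, the gene for the inhibitor IκBε and itself induced by NF-κB, had intensities of 114 and 113 on the wild type arrays and 206 and 170.0 on the floxed arrays. The floxed arrays were higher by 0.65 ± 0.13 on the log2 scale (SE, n = 2 per group; adjusted p = 0.0831, passing at 0.036 with a pseudocount of 64 and at 0.0394 under a robust prior with an intensity trend). Nfkbia, Rel and Nfkbib had log2 fold changes of 0.23, 0.28 and -0.18. Nfkb2, the precursor that the non-canonical branch processes, gave 57.4 and 82.6 against 60.4 and 57.9, with overlap. Its log2 fold change was -0.18, but 0.29 in the fit on averaged probe sets.

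Markers of other cells and tissues differed on the same arrays as the members. Of 13 genes of monocytes and macrophages tested, 4 passed, all higher in floxed lungs, among them Marco and Fcgr4 with log2 fold changes of 1.80 and 1.37, and the list's sum was 5039 to 5093 against 6557 to 7405. Among heart muscle genes 7 of 8 passed, all lower, with sums of 4355 to 6403 against 481 to 622. Among adipose genes 3 of 4 passed, all lower, with sums of 757 to 1024 against 94.0 to 115. For fibroblasts and smooth muscle 3 of 8 passed, and for airway genes 3 of 6, all lower (0.762% of all genes passed lower). Below 0 lay 8 of 8 heart muscle, 4 of 4 adipose, 6 of 8 fibroblast and smooth muscle and 5 of 6 airway genes. Over all genes tested, 6366 of 12735 lay below 0. No gene passed among 7 of dendritic cells, 3 of neutrophils, 8 of alveolar epithelium and 8 of endothelium. Of these, 3, 0, 2 and 1 had an unadjusted p under 0.05, beside 14.3% of all genes. The part of tissue composition in the members' values was not tested.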

How the data were processed

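Each of 4 lung RNA samples was hybridised to 1 single-colour Affymetrix array. Per the submitters' processing notes the authors used Affymetrix Expression Console, with neither version nor signal algorithm stated in the sources used here. The deposited values are linear intensities, 1 per probe set, and their mean with 2% trimmed from each end was 150.001 on every array. The deposited scaling was kept, as array medians differed by at most 0.0646 on the log2 scale. Of 45101 probe sets, 64 were controls, 34945 had 1 symbol in the platform annotation, 932 several and 9160 none listed. Symbols were checked by Entrez number against RefSeq GRCm38.p6 (34741 matched, 0 changed). Members covered 72 probe sets with 1 symbol, and 3 more with several symbols were not used. Each gene was represented by the probe set with the highest mean.

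Intensities were taken as log2(intensity + 16), so fold changes of low genes are understated. Genes under the 30th percentile of mean intensity (21.0) were left out, and 12735 were tested by limma 3.58.1 in R 4.3.3 (lmFit, eBayes, two-sided, Benjamini-Hochberg over all genes, threshold 0.05). The fit had 2 residual and 4.67 prior degrees of freedom. An exact permutation test of 2 against 2 cannot go below p = 0.333 and was not used. The number of arrays limits precision. The members, gene lists and tests were chosen with earlier results of these data known. Full statistics are given for called members and up to 6 more per class by moderated t, and up to 4 genes per pathway list and 3 per cell type list are named. The procedure was tested on simulated data, with 200 of 12735 genes changed on the log2(intensity + 16) scale. Of the changes put in, 4.63% at 1.5-fold, 71.3% at 2-fold and 99.3% at 4-fold were called. False calls made up 4.82% of all calls there. Whether the real arrays vary as that simulation assumed was not tested. These rates are therefore no measure of error or power on the 4 arrays. Promoter windows came from RefSeq and were searched on both strands for 3 motifs, which did not overlap in the windows printed. Alternatives were other pseudocounts, no filter, quantile or median scaling, an intensity trend with robust prior, the mean of probe sets, a replicate block and each array left out.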

Additional observations from a re-analysis of the deposited data

How the results depend on the processing

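No member was called under 11 of the 12 alternatives. The exception was the fit without wild type replicate 2, which called Tnfrsf17, so with 1 array left out the members higher in floxed lungs numbered 0 to 1, and those lower stayed at 0. Receptor-proximal genes higher in floxed lungs numbered 1 (Mlkl) with a pseudocount of 64, with an intensity trend and robust prior and with the mean of all probe sets. Nfkbie passed under the first and second of these settings. Over all genes, 225 were called in the reported fit, 110 with a pseudocount of 1, 362 with a pseudocount of 64, 69 with no filter on low genes, 388 with an intensity trend and robust prior, and 145 to 251 with 1 array left out, the lowest without wild type replicate 2. Causes of these shifts were not tested. With the replicate block 0 members and 198 genes were called. Same-numbered arrays deviated together at a correlation of 0.00209, so no shift common to them was seen. The labels used here state no pairing beyond the number, and the correlation cannot exclude one. Levels near background limit the members left out of the test, and 2 arrays per group limit the rest.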
